A study of Mus musculus with 12 samples.

Results

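The genes described here are 10 members of the interleukin-1, interleukin-6 and tumour necrosis factor systems: Il1a, Il1b, Il1rn, Il1r2, Il6, Lif, Osm, Csf3, Tnf and Socs3. They were taken by symbol from the 22180 genes of a mouse lung microarray series, and earlier results of these data were known when they were chosen. Each gene was read from the probe that the platform annotation pairs with that symbol alone, and where there were several such probes, from the brightest over the 12 arrays. Only Socs3 had a second such probe. All 10 genes were measured and tested, with no filter on low values.

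RNA of the whole lung was measured on 12 one-colour Affymetrix arrays, each holding 1 female mouse aged 10 weeks, and every one of the 4 groups had 3 mice. The groups were Zmpste24-/- ventilated, Zmpste24-/- baseline, wildtype ventilated and wildtype baseline. Zmpste24-/- mice lack the metalloprotease that removes the farnesylated tail of the lamin A precursor, and wildtype mice served as their controls. Ventilated mice received positive inspiratory pressure of 15 cmH2O with no end-expiratory pressure for 2.5 hours, with 100 breaths given per minute and the inspired oxygen fraction set to 0.21. Baseline mice were intact animals of the same age and sex, so the labels record no sham procedure or anaesthesia for them. The strain is not given in the labels, and replicates are labelled as biological.

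IL-1α and IL-1β are alarm cytokines that signal through the type 1 IL-1 receptor. The receptor antagonist encoded by Il1rn blocks that receptor, and the type 2 receptor encoded by Il1r2 is a decoy that binds IL-1 without signalling. IL-6, LIF and oncostatin M signal through receptors that share gp130 and activate STAT3, which induces Socs3, and the SOCS3 protein in turn inhibits that receptor complex. G-CSF, encoded by Csf3, drives neutrophil production, and TNF, mainly a product of macrophages, activates NF-κB. In stretched or inflamed lung these cytokines are known as early products of macrophages, neutrophils, epithelium and other resident cells.

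Promoter sequences are shown for the 4 genes with the largest increase after ventilation in Zmpste24-/- lungs, to set beside their changes which motif letters lie at their start sites. Each runs 5′ to 3′ over the 250 bases before the RefSeq start site (GRCm38.p6), in the gene's own orientation, with motif matches in capitals. Il1r2 lies at chr1:40085843-40086092 on the plus strand, Il6 at chr5:30012864-30013113 on the plus strand, Lif at chr11:4257318-4257567 on the plus strand and Socs3 at chr11:117969367-117969616 on the minus strand.
Il1r2: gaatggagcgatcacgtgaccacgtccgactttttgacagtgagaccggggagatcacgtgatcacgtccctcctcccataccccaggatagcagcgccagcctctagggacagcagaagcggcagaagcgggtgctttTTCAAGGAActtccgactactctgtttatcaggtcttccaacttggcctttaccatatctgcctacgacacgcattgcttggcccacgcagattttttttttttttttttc
Il6: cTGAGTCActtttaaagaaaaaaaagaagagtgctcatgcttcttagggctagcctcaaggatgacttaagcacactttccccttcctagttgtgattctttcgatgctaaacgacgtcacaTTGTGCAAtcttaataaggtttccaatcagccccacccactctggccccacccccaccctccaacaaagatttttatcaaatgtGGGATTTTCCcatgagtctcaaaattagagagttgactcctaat
Lif: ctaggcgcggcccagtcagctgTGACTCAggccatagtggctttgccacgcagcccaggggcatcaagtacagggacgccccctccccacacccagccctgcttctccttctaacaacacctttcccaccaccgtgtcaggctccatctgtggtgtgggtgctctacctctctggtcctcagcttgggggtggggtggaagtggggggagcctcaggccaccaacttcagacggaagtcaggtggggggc
Socs3: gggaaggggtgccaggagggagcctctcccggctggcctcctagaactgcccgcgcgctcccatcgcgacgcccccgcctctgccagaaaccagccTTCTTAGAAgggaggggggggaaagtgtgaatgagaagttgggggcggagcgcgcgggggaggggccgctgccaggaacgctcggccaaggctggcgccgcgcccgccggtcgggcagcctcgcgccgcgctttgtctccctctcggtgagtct
The capitals in Il1r2 and Socs3 mark the STAT motif TTCNNNGAA. In Il6 they mark, in order, the AP-1 motif TGANTCA, the C/EBP motif TTNNGNAA and a match to the NF-κB consensus, and in Lif they mark the AP-1 motif.

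Motifs were searched on both strands of RefSeq windows from 250 bases before to 50 bases after each start site, and all of the 10 genes except Osm and Csf3 had such a window. The STAT motif TTCNNNGAA was present in 2 of the 8 genes (Il1r2 and Socs3), against 9.55% of all 27025 genes with a window. The AP-1 motif TGANTCA was present in 4 of the 8 (Il1a, Il1rn, Il6 and Lif), against 8.97% of all genes. The NF-κB consensus was present in Il6 alone of the 8, against 5.14% of all genes, and the short C/EBP motif TTNNGNAA was present in 5 of the 8, against 44.1%. The heat shock element GAANNTTC and the cyclic AMP response element TGACGTCA were found in none of the 8, against 9.04% and 2.03% of all genes. In Socs3 the STAT match lay at positions -154 to -146 relative to the start, and in Il6 the NF-κB match lay at -44 to -35. A match describes these letters only, and the matches in the Il6 window did not overlap one another.

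Zmpste24 itself stood at 5.39 ± 0.36 in ventilated and 5.55 ± 0.31 in baseline Zmpste24-/- lungs, against 8.90 ± 0.39 in ventilated and 8.84 ± 0.29 in baseline wildtype lungs (log2, SD, n = 3). All levels below are the authors' normalized log2 values, in which 1 unit is a doubling, and they are compared between arrays for the same gene, never between genes. Correlations across genes between arrays of one group were 0.991 to 0.9958. Alveolar epithelial markers, summarised as the mean log2 level of 10 genes, stood between 10.97 and 11.26 in every array, far above the array median. The liver transcript Alb separated the genotypes, at 6.04 to 6.40 in the 6 Zmpste24-/- lungs and 7.04 to 11.52 in the 6 wildtype lungs. Another, Mup20, was 3.13 and 3.47 in wildtype ventilated mice 2 and 3, against 2.88 to 3.26 in the Zmpste24-/- lungs. Baseline wildtype mouse 2 was the highest, with Alb at 11.52 and Mup20 at 10.05, and results are given without it where it matters. No background level was set, so a gene below the array median, which was 5.99 to 6.08 over genes, may be near background. Csf3 was below the median in 12 of 12 arrays, Il1a, Il6 and Osm in 11 each, Lif in 8, Il1r2 in 5, Tnf in 3 and Il1rn in 2, and Il1b and Socs3 in 0. Precision was limited by 3 arrays per group.

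Ventilation was followed by higher expression of 7 of the 10 genes in Zmpste24-/- lungs: Il1a, Il1b, Il1r2, Il6, Lif, Tnf and Socs3. The adjusted p was under 0.05 for these 7 by limma with Benjamini-Hochberg adjustment over all 22180 genes, where 8.89% of all genes were higher. In wildtype lungs 3 of the 10 were higher (Il1r2, Tnf and Socs3), against 3.67% of all genes, and none of the 10 was lower in either genotype. The median log2 change of the 10 genes was 1.08 in Zmpste24-/- lungs and 0.31 in wildtype lungs, against -0.007 and -0.013 over all genes. The ventilated arrays all lay above the baseline arrays for 7 of the 10 genes in Zmpste24-/- lungs (16.6% of all genes) and for 5 in wildtype lungs (10.8% of all genes), Il6 and Lif being the additional ones. In whole lung, a change in the number of cells of a type and a change in RNA per cell cannot be told apart.

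**Figure D1:**
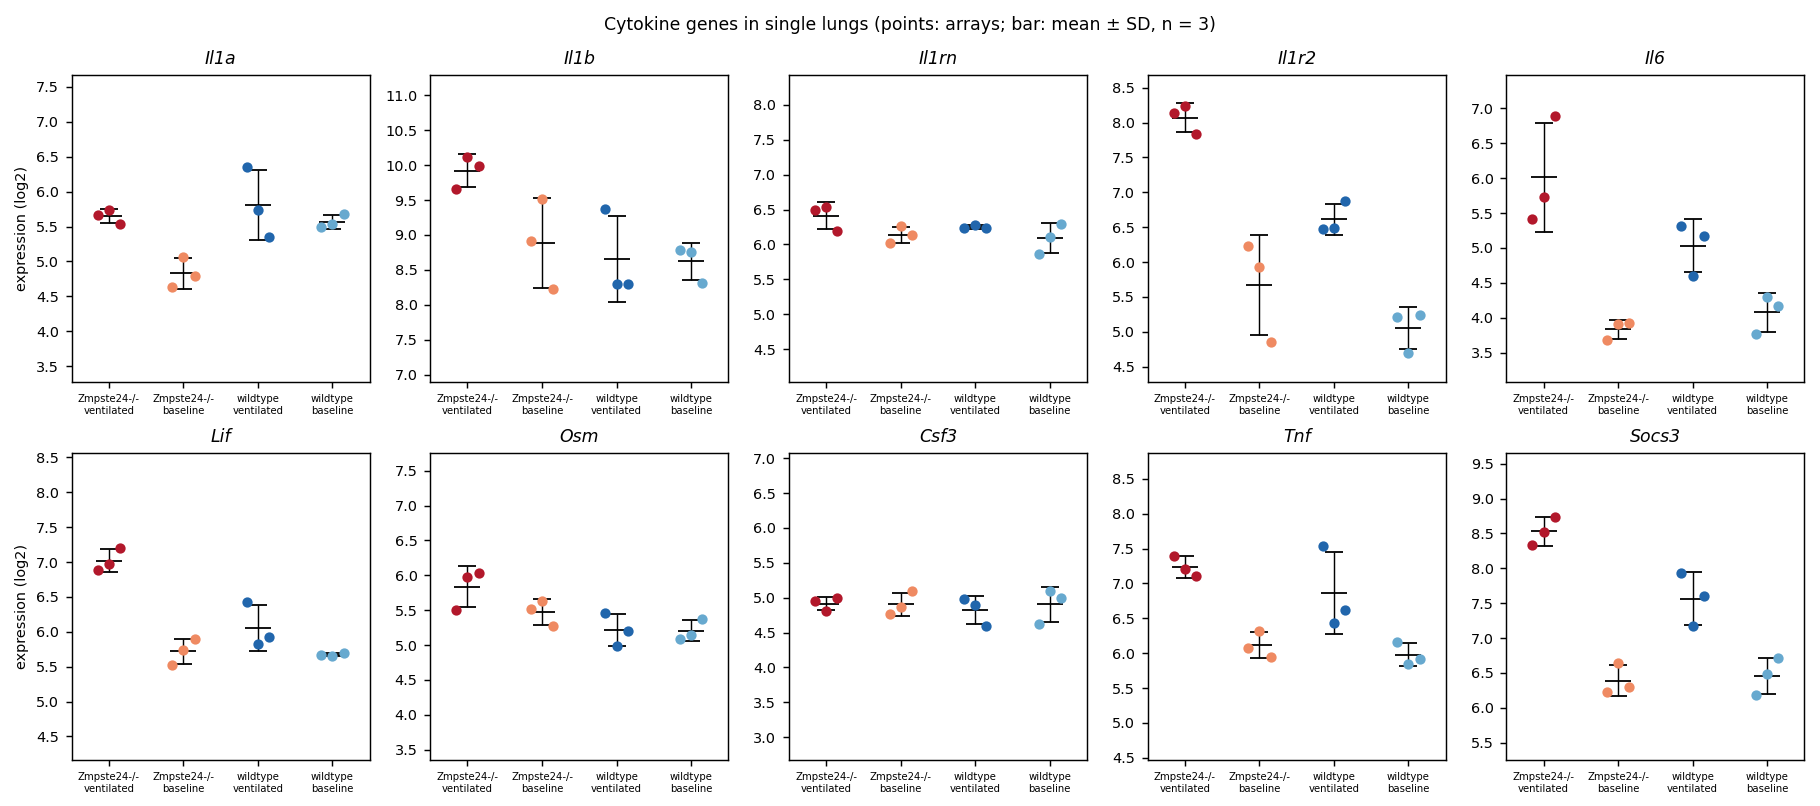
Expression (log2) of the 10 cytokine genes in each of the 12 lungs, 1 panel per gene, with Zmpste24-/- ventilated, Zmpste24-/- baseline, wildtype ventilated and wildtype baseline from left to right. Points are single arrays, and bars are the mean ± SD (n = 3). Every panel spans the same log2 range, and Il1r2, Il6 and Socs3 show the widest distance between ventilated and baseline lungs, while Csf3 stays between 4.60 and 5.09.

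Il1b, encoding an agonist of the IL-1 receptor, was higher after ventilation in Zmpste24-/- lungs, and no change was called in wildtype lungs. It stood at 9.66, 10.12 and 9.99 in Zmpste24-/- ventilated lungs and at 8.92, 9.51 and 8.22 in Zmpste24-/- baseline lungs. It stood at 9.37, 8.30 and 8.30 in wildtype ventilated lungs and at 8.79, 8.76 and 8.31 in wildtype baseline lungs. The 3 Zmpste24-/- ventilated lungs were above all 9 others, whereas ventilated wildtype lungs overlapped baseline wildtype lungs and only wildtype mouse 1 exceeded them. The change after ventilation was 1.04 ± 0.31 in Zmpste24-/- lungs (log2 ± SE, 2.06-fold, adjusted p = 0.0343 by limma) and 0.04 ± 0.31 in wildtype lungs (adjusted p = 0.97). Zmpste24-/- baseline lungs spread over more than 1 log2 unit, and the call in Zmpste24-/- lungs was lost in 7 of 22 alternatives, with changes of 0.71 to 1.36. It was lost when any 1 of Zmpste24-/- baseline mouse 1 (adjusted p = 0.0724), baseline mouse 3 (0.155), ventilated mouse 2 (0.118) or ventilated mouse 3 (0.101) was left out.

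Il1a, encoding the other agonist, was lowest in Zmpste24-/- baseline lungs. It stood at 5.67, 5.74 and 5.54 in Zmpste24-/- ventilated lungs and at 4.63, 5.07 and 4.79 in Zmpste24-/- baseline lungs. It stood at 6.35, 5.74 and 5.35 in wildtype ventilated lungs and at 5.49, 5.54 and 5.68 in wildtype baseline lungs. The 3 Zmpste24-/- baseline lungs were below all 9 others, and the other groups overlapped one another. Il1a was higher after ventilation in Zmpste24-/- lungs by 0.82 ± 0.19 (1.77-fold, adjusted p = 0.0088 by limma), and the change in wildtype lungs was 0.24 ± 0.19 (adjusted p = 0.542). At baseline it was lower in Zmpste24-/- than in wildtype lungs by the log2 difference -0.74 ± 0.19 (adjusted p = 0.0341), the single call among the 10 genes at baseline, where 4.11% of all genes were lower. That baseline call was lost when any of wildtype baseline mouse 1, 2 or 3 or Zmpste24-/- baseline mouse 1 or 3 was left out, with adjusted p-values of 0.0671, 0.0796, 0.0913, 0.112 and 0.107 in that order. Between ventilated lungs Il1a differed by -0.16 ± 0.19 (adjusted p = 0.669).

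The decoy receptor gene Il1r2 showed the largest change of the 10 genes in both genotypes. It stood at 8.13, 8.24 and 7.84 in Zmpste24-/- ventilated lungs and at 6.23, 5.93 and 4.86 in Zmpste24-/- baseline lungs. It stood at 6.48, 6.49 and 6.87 in wildtype ventilated lungs and at 5.22, 4.70 and 5.24 in wildtype baseline lungs. The Zmpste24-/- ventilated lungs were above all others, the wildtype ventilated lungs came next without overlap, and the baseline groups overlapped. The change after ventilation was 2.40 ± 0.27 in Zmpste24-/- lungs (5.26-fold, adjusted p = 6.11e-05) and 1.56 ± 0.27 in wildtype lungs (2.94-fold, adjusted p = 0.00376) by limma. At baseline Il1r2 differed by 0.62 ± 0.27 between Zmpste24-/- and wildtype lungs (adjusted p = 0.213), and without Zmpste24-/- baseline mouse 3, which had the lowest value of its group, by 1.02 (adjusted p = 0.0141).

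Il1rn, the receptor antagonist, passed in no comparison. It stood at 6.50, 6.54 and 6.19 in Zmpste24-/- ventilated lungs and 6.02, 6.26 and 6.13 in Zmpste24-/- baseline lungs, and at 6.23, 6.28 and 6.24 in wildtype ventilated lungs and 5.87, 6.11 and 6.30 in wildtype baseline lungs. Neighbouring groups all overlapped, and the changes after ventilation were 0.27 ± 0.12 in Zmpste24-/- lungs (adjusted p = 0.153) and 0.16 ± 0.12 in wildtype lungs (adjusted p = 0.514) by limma. The 95% intervals of these changes were 0.02 to 0.53 and -0.10 to 0.42, the first for Zmpste24-/- and the other for wildtype lungs.

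Among the IL-6 family cytokines, Il6 and Lif were higher after ventilation in Zmpste24-/- lungs, and Osm and Csf3 did not pass in either genotype. Il6 stood at 5.41, 5.73 and 6.89 in Zmpste24-/- ventilated lungs and at 3.68, 3.91 and 3.92 in Zmpste24-/- baseline lungs. It stood at 5.32, 4.60 and 5.17 in wildtype ventilated lungs and at 3.76, 4.30 and 4.17 in wildtype baseline lungs. Ventilated and baseline lungs did not overlap in either genotype, and Zmpste24-/- ventilated mouse 3 was the highest of all, more than 1 log2 unit above the next. The change was 2.17 ± 0.30 in Zmpste24-/- lungs (4.50-fold, adjusted p = 0.000244) and 0.96 ± 0.30 in wildtype lungs (1.94-fold, adjusted p = 0.0726) by limma. The wildtype change passed without Zmpste24-/- ventilated mouse 3 (adjusted p = 0.00812), without Zmpste24-/- ventilated mouse 1 (0.045) and with the 2 wildtype groups fitted alone (0.0287), since these arrays share the estimate of spread.

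Lif separated the ventilated Zmpste24-/- lungs with little spread. It stood at 6.88, 6.97 and 7.20 in Zmpste24-/- ventilated lungs and at 5.53, 5.74 and 5.89 in Zmpste24-/- baseline lungs. It stood at 6.43, 5.82 and 5.92 in wildtype ventilated lungs and at 5.67, 5.65 and 5.69 in wildtype baseline lungs. The Zmpste24-/- ventilated lungs were above all 9 others, and in wildtype lungs the ventilated mice were above the baseline mice, mouse 1 by the widest margin. The change was 1.30 ± 0.14 in Zmpste24-/- lungs (2.45-fold, adjusted p = 5.19e-05) and 0.38 ± 0.14 in wildtype lungs (adjusted p = 0.139) by limma. Without wildtype ventilated mouse 1 the wildtype change was 0.20 (adjusted p = 0.406).

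Osm stood at 5.50, 5.98 and 6.03 in Zmpste24-/- ventilated lungs and 5.51, 5.63 and 5.27 in Zmpste24-/- baseline lungs, and at 5.46, 4.99 and 5.20 in wildtype ventilated lungs and 5.09, 5.15 and 5.38 in wildtype baseline lungs. Ventilated mice 2 and 3 of the Zmpste24-/- group were the highest, and mouse 1 lay among the baseline lungs. Its change was 0.37 ± 0.15 in Zmpste24-/- lungs (adjusted p = 0.135) and 0.01 ± 0.15 in wildtype lungs (adjusted p = 0.984), and without Zmpste24-/- ventilated mouse 1 the first was 0.53 (adjusted p = 0.0267). Csf3 ranged from 4.81 to 4.99 in ventilated and 4.77 to 5.09 in baseline Zmpste24-/- lungs, and from 4.60 to 4.98 in ventilated and 4.62 to 5.09 in baseline wildtype lungs. The groups of Csf3 overlapped fully, and all 12 values were below the array median. Its changes were 0.01 ± 0.13 in Zmpste24-/- lungs and -0.08 ± 0.13 in wildtype lungs, with 95% intervals of -0.28 to 0.30 and -0.37 to 0.21.

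Tnf was higher after ventilation in both genotypes. It stood at 7.40, 7.21 and 7.10 in Zmpste24-/- ventilated lungs and at 6.07, 6.32 and 5.95 in Zmpste24-/- baseline lungs. It stood at 7.53, 6.43 and 6.62 in wildtype ventilated lungs and at 6.16, 5.85 and 5.92 in wildtype baseline lungs. Every ventilated lung was above every baseline lung, and the highest value of all was wildtype ventilated mouse 1. The change was 1.13 ± 0.22 in Zmpste24-/- lungs (2.18-fold, adjusted p = 0.00278) and 0.88 ± 0.22 in wildtype lungs (1.84-fold, adjusted p = 0.0253) by limma. Without wildtype ventilated mouse 1 the wildtype change was 0.55 (adjusted p = 0.0333). The wildtype call held in 18 of 22 alternatives. It was lost without wildtype baseline mouse 2 (0.82, adjusted p = 0.0826) or mouse 3 (0.86, adjusted p = 0.0714). It was also lost with all probes tested together (adjusted p = 0.0735) and with the 2 wildtype groups fitted alone (adjusted p = 0.0846).

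Socs3, the feedback inhibitor of gp130 signalling, was higher after ventilation in both genotypes. It stood at 8.33, 8.52 and 8.74 in Zmpste24-/- ventilated lungs and at 6.23, 6.64 and 6.30 in Zmpste24-/- baseline lungs. It stood at 7.93, 7.17 and 7.60 in wildtype ventilated lungs and at 6.19, 6.48 and 6.71 in wildtype baseline lungs. The Zmpste24-/- ventilated lungs were above the wildtype ventilated lungs, these were above both baseline groups, and the baseline groups overlapped. The change was 2.14 ± 0.19 in Zmpste24-/- lungs (4.42-fold, adjusted p = 7.56e-06) and 1.10 ± 0.19 in wildtype lungs (2.15-fold, adjusted p = 0.00299) by limma. The second Socs3 probe also had its highest means in the ventilated groups, with wildtype ventilated lungs overlapping Zmpste24-/- baseline lungs, at 5.70 ± 0.14 and 4.53 ± 0.16 in Zmpste24-/- ventilated and baseline lungs, and 4.83 ± 0.22 and 4.32 ± 0.09 in wildtype ventilated and baseline lungs (SD, n = 3).

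**Figure D2:**
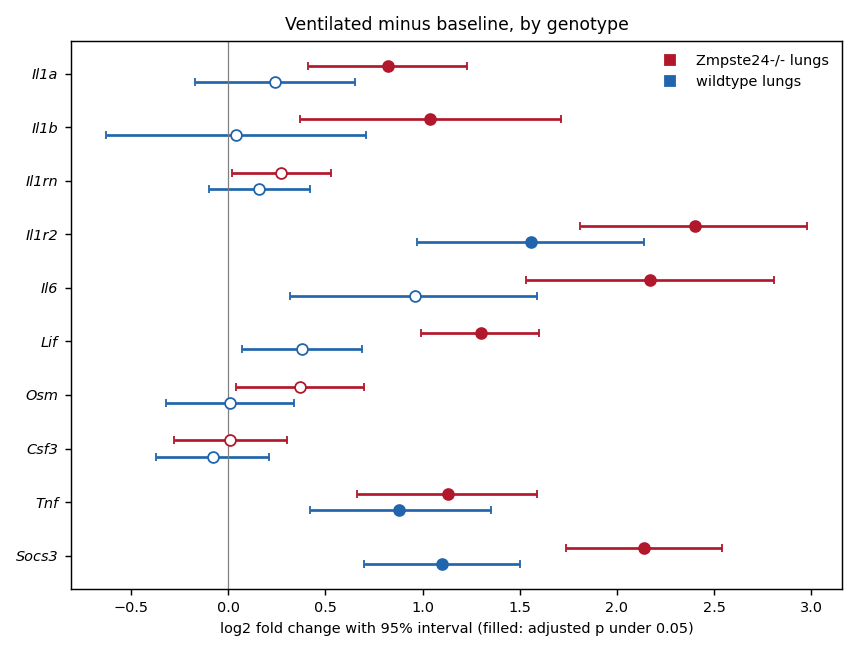
Log2 fold change from baseline to ventilated lungs for the 10 cytokine genes in Zmpste24-/- mice (red, upper mark of each gene) and wildtype mice (blue, lower mark), with 95% confidence intervals from limma. Filled marks have an adjusted p under 0.05 over all 22180 genes, which is the case for 7 genes in Zmpste24-/- lungs and for Il1r2, Tnf and Socs3 in wildtype lungs.

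Between ventilated lungs of the 2 genotypes, 5 of the 10 genes were higher in Zmpste24-/- lungs (Il1b, Il1r2, Lif, Osm and Socs3), where 4.72% of all genes were higher. The differences were 1.27 ± 0.31 for Il1b (adjusted p = 0.0187), 1.46 ± 0.27 for Il1r2 (adjusted p = 0.00423) and 0.96 ± 0.14 for Lif (adjusted p = 0.00114). Those 3 genes encode an IL-1 receptor agonist, its decoy and a gp130 cytokine. Osm differed by 0.62 ± 0.15 (adjusted p = 0.02) and Socs3 by 0.97 ± 0.19 (adjusted p = 0.00495). The difference for Il6, 0.98 ± 0.30, missed the threshold (adjusted p = 0.0511), which it passed in 7 of 21 alternatives. The 3 Zmpste24-/- arrays lay above the 3 wildtype arrays for 6 of the 10 genes, Il6 among them, against 14.8% of all genes.

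Tnf differed by 0.38 ± 0.22 between Zmpste24-/- and wildtype ventilated lungs (95% interval -0.09 to 0.84, adjusted p = 0.314), and without wildtype ventilated mouse 1 the difference was 0.71 (adjusted p = 0.00532). Il1rn differed by 0.16 ± 0.12 and Csf3 by 0.09 ± 0.13, and neither passed. The calls of Il1b and Osm were lost when any of wildtype ventilated mice 2 or 3, or Zmpste24-/- ventilated mice 2 or 3, was left out, which left 3 genes called (Il1r2, Lif and Socs3). The same wildtype mouse 1 was the highest of its group for 8 of the 10 genes, all but Il1rn and Il1r2. In the Zmpste24-/- ventilated group the highest values were spread over mouse 3 (5 genes), mouse 2 (4 genes) and mouse 1 (Tnf alone).

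At baseline the median genotype difference of the 10 genes was 0.05, against -0.011 over all genes, and apart from Il1a none passed. Differences were 0.26 ± 0.31 for Il1b, 0.62 ± 0.27 for Il1r2, -0.24 ± 0.30 for Il6 and 0.05 ± 0.14 for Lif. They were 0.26 ± 0.15 for Osm, 0.13 ± 0.22 for Tnf and -0.07 ± 0.19 for Socs3. The interval for Lif ran from -0.26 to 0.36 and that for Socs3 from -0.47 to 0.33, beside estimated differences of 0.96 and 0.97 in ventilated lungs. The baseline intervals were -0.40 to 0.93 for Il1b, 0.03 to 1.20 for Il1r2 and -0.07 to 0.60 for Osm. Their estimated differences in ventilated lungs were 1.27, 1.46 and 0.62 in that order. Whether ventilation changed a gene more in Zmpste24-/- lungs was tested as the interaction of genotype and ventilation. None of the 10 genes passed it, where 0.316% of all genes did, and 6 had an unadjusted p under 0.05, against 11.7% of all genes.

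The excess of the change in Zmpste24-/- over that in wildtype lungs was 0.91 ± 0.20 for Lif (95% interval 0.48 to 1.35, adjusted p = 0.0767), the closest to the threshold. It was 1.04 ± 0.26 for Socs3 (0.47 to 1.61, adjusted p = 0.117) and 1.22 ± 0.42 for Il6 (0.31 to 2.12, adjusted p = 0.256). These 3 belong to the gp130 axis, as does Osm, whose excess was 0.36 ± 0.22 (adjusted p = 0.587 by limma). All 10 genes had an excess above 0, that of Csf3 changing sign in 2 alternatives, with a median of 0.71 against 0.013 over all genes. Il1b had an excess of 1.00 ± 0.44, Il1r2 of 0.84 ± 0.38 and Il1a of 0.58 ± 0.27, all 3 with adjusted p-values from 0.392 to 0.423. The excess was 0.24 ± 0.31 for Tnf, with an interval of -0.41 to 0.90. Without wildtype ventilated mouse 1, Lif passed (1.10, adjusted p = 0.0126) and Socs3 did not (1.22, adjusted p = 0.0544). The ventilation and genotype comparisons share arrays, so they are not independent of one another.

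**Figure D3:**
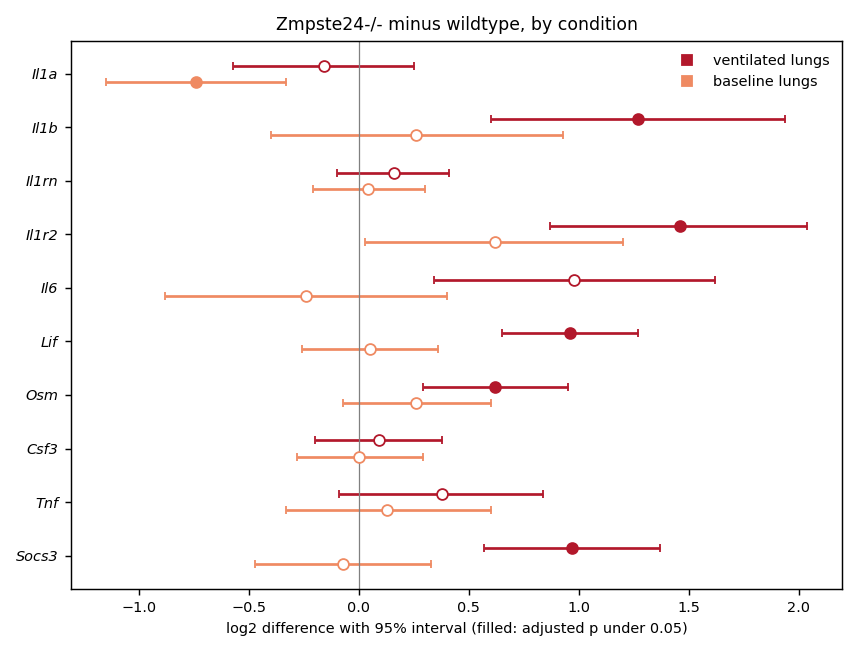
Log2 difference between Zmpste24-/- and wildtype lungs for the 10 cytokine genes, in ventilated lungs (red, upper mark) and baseline lungs (orange, lower mark), with 95% confidence intervals from limma. Filled marks have an adjusted p under 0.05: Il1b, Il1r2, Lif, Osm and Socs3 in ventilated lungs, and Il1a, which lies below 0, in baseline lungs.

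Ordered by mean level, Zmpste24-/- ventilated lungs came first for 9 of the 10 genes, Il1a being the exception with wildtype ventilated lungs first (gap 0.16, overlapping). Among the 9, the first group overlapped the next for Csf3 (gap 0.01), Il1rn (0.16), Osm (0.37) and Tnf (0.38). For Il1r2, Il6 and Socs3 the wildtype ventilated group came next, without overlap on either side. For Lif and Tnf the same order held, but wildtype ventilated lungs overlapped Zmpste24-/- baseline lungs for Lif and Zmpste24-/- ventilated lungs for Tnf. For Il1b and Osm the wildtype ventilated group ranked behind Zmpste24-/- baseline lungs and overlapped them. Within groups, deviations of the genes from their group means ran together most closely for Osm and Socs3 (r = 0.84), Il1a and Tnf (r = 0.76) and Il1b and Tnf (r = 0.73), as a description over 12 arrays that share normalization, and 35 of the 45 pairs of genes had a correlation above 0.

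Of the cell type marker lists, only the neutrophil list held genes called higher after ventilation. The 14 neutrophil markers had a mean log2 level of 7.50 to 7.55 in Zmpste24-/- ventilated lungs, 6.16 to 6.69 in Zmpste24-/- baseline lungs, 6.65 to 7.17 in wildtype ventilated lungs and 6.00 to 6.37 in wildtype baseline lungs, so the groups ranked as they did for Il1r2, with overlap between wildtype ventilated and Zmpste24-/- baseline lungs. Of the 14 markers, 10 were higher after ventilation in Zmpste24-/- lungs and 5 in wildtype lungs, and the wildtype count was 2 without wildtype baseline mouse 2, ventilated mouse 1 or ventilated mouse 3. Between ventilated lungs 8 were higher and 1 (Ltf, named after its value was seen) was lower in Zmpste24-/- lungs, and at baseline 1 was higher. The defining markers Ly6g, Camp and Ngp were below the median in every array. Il1b, Il1r2, Osm and Tnf are also known products of neutrophils, and the part of neutrophil RNA in their changes was not tested.

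Macrophage and endothelial markers did not follow the order of the neutrophil markers. The 14 macrophage and monocyte markers stood at 7.65 to 7.86 in Zmpste24-/- ventilated, 7.68 to 7.76 in Zmpste24-/- baseline, 7.74 to 7.89 in wildtype ventilated and 7.87 to 8.01 in wildtype baseline lungs. None of the 14 was called after ventilation in Zmpste24-/- lungs, and 1 (Ly6c2) was lower in wildtype lungs. The 10 endothelial markers were lower after ventilation, with 8 of 10 called in each genotype. Over all 22180 genes, 1669 were lower after ventilation in Zmpste24-/- lungs and 782 in wildtype lungs. The endothelial markers stood at 9.38 to 9.51 in Zmpste24-/- ventilated lungs and 9.83 to 9.97 in Zmpste24-/- baseline lungs, against 9.64 to 9.75 in wildtype ventilated lungs and 10.18 to 10.22 in wildtype baseline lungs. Between genotypes, 4 of the 10 were lower in Zmpste24-/- lungs among ventilated mice and 4 at baseline. Of the 14 macrophage and monocyte markers, 3 were lower in Zmpste24-/- lungs at baseline, and 1 was higher and 1 lower among ventilated mice. The part of these shifts in the cytokine changes was not tested.

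Lymphocyte, stromal and liver markers also differed between genotypes. The 7 B cell markers stood at 6.58 to 6.92 in Zmpste24-/- ventilated, 7.11 to 7.51 in Zmpste24-/- baseline, 7.44 to 8.08 in wildtype ventilated and 7.86 to 8.39 in wildtype baseline lungs. In Zmpste24-/- lungs 7 of the 7 were lower than in wildtype lungs among ventilated mice and 6 at baseline. Over all 22180 genes, 1349 were lower among ventilated mice and 911 at baseline. The 10 T and NK cell markers stood at 5.77 to 5.89 in Zmpste24-/- ventilated, 5.94 to 6.21 in Zmpste24-/- baseline, 6.49 to 6.72 in wildtype ventilated and 6.95 to 7.12 in wildtype baseline lungs, with 8 lower in Zmpste24-/- lungs among ventilated mice and 7 at baseline. Of 8 fibroblast and smooth muscle markers, 4 were lower and 1 higher in Zmpste24-/- lungs among ventilated mice, and 2 were lower at baseline. The 7 liver markers stood at 4.51 to 4.61 in Zmpste24-/- ventilated, 4.40 to 4.58 in Zmpste24-/- baseline, 4.60 to 5.62 in wildtype ventilated and 5.52 to 7.63 in wildtype baseline lungs. Of these, 4 were lower in Zmpste24-/- lungs at baseline and none was called by limma among ventilated mice, where 1 had an unadjusted p under 0.05. After ventilation 2 of the 7 were lower in wildtype lungs and none was called in Zmpste24-/- lungs, with median changes of -1.01 and 0.08. The part of these markers in the genotype differences of the cytokine and TNF ligand genes, Ltb and Fasl included, was not tested.

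Of 9 receptor genes for these cytokines, 6 were higher and 1 lower after ventilation in Zmpste24-/- lungs, and 1 was higher and 1 lower in wildtype lungs. Il1r1, the signalling IL-1 receptor, was higher after ventilation in Zmpste24-/- lungs by 0.43 ± 0.12 (adjusted p = 0.0224) and changed by 0.19 ± 0.12 in wildtype lungs (adjusted p = 0.423), and its partner Il1rap changed by 0.32 ± 0.11 in Zmpste24-/- lungs (adjusted p = 0.0698). The Il1r1 call was lost in 6 of 22 alternatives. Il6ra, the IL-6-binding chain, was higher by 0.37 ± 0.12 in Zmpste24-/- lungs (adjusted p = 0.0427, lost in 12 of 22 alternatives), and between ventilated lungs it was higher in Zmpste24-/- lungs by 0.61 ± 0.12 (adjusted p = 0.00475). The shared chain gp130, encoded by Il6st, changed by 0.08 ± 0.08 in Zmpste24-/- and -0.02 ± 0.08 in wildtype lungs. These are all limma values.

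The LIF and oncostatin M receptors moved in opposite directions. Osmr was higher after ventilation by 1.17 ± 0.11 in Zmpste24-/- lungs (adjusted p = 1.56e-05) and 0.76 ± 0.11 in wildtype lungs (adjusted p = 0.0013). Lifr was lower, at -0.55 ± 0.08 in Zmpste24-/- lungs (adjusted p = 0.000401) and -0.43 ± 0.08 in wildtype lungs (adjusted p = 0.00584). Csf3r, the G-CSF receptor and also one of the neutrophil markers, was higher by 1.02 ± 0.24 in Zmpste24-/- lungs (adjusted p = 0.00932) and changed by 0.52 ± 0.24 in wildtype lungs (adjusted p = 0.235). The TNF receptor Tnfrsf1a was higher by 0.44 ± 0.09 in Zmpste24-/- lungs (adjusted p = 0.00384). Tnfrsf1b was higher by 0.36 ± 0.11 in Zmpste24-/- lungs (adjusted p = 0.0347, lost in 7 of 22 alternatives) and changed by -0.23 ± 0.11 in wildtype lungs (adjusted p = 0.246). At baseline Tnfrsf1b was lower in Zmpste24-/- lungs by the log2 difference -0.61 ± 0.11 (adjusted p = 0.0052).

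Of the IL-1 system beyond the 10 genes, 2 of 7 tested ligands were higher after ventilation in Zmpste24-/- lungs and 1 in wildtype lungs, with medians of 0.07 and -0.10. Il1f9, the older symbol of Il36g, encodes IL-36γ, and was higher by 2.37 ± 0.30 in Zmpste24-/- lungs (adjusted p = 0.000142) and 1.67 ± 0.30 in wildtype lungs (adjusted p = 0.00484). The alarmin gene Il33 was higher by 0.89 ± 0.23 in Zmpste24-/- lungs (adjusted p = 0.0184), and its change in wildtype lungs was 0.70 ± 0.23 (adjusted p = 0.0936). Without Zmpste24-/- baseline mouse 2 or ventilated mouse 2 the ligand count in Zmpste24-/- lungs was 1.

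Among 16 IL-1 receptors and signalling genes, 8 were higher and 1 lower in Zmpste24-/- lungs and 1 was higher in wildtype lungs, with medians of 0.31 and 0.08. Without Zmpste24-/- ventilated mouse 3 the count in Zmpste24-/- lungs was 5 higher and 0 lower. The adaptor gene Myd88 was higher by 0.94 ± 0.11 in Zmpste24-/- lungs (adjusted p = 6.72e-05) and 0.50 ± 0.11 in wildtype lungs (adjusted p = 0.0127), the wildtype call being lost without wildtype ventilated mouse 1 or 3. The kinase gene Irak2 was higher by 0.49 ± 0.08 in Zmpste24-/- lungs (adjusted p = 0.00105), and Il18r1, an IL-18 receptor chain, by 0.76 ± 0.14 (adjusted p = 0.00261).

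Of 15 genes listed as STAT3 targets, 12 were higher after ventilation in Zmpste24-/- lungs and 5 in wildtype lungs, with medians of 0.87 and 0.48. The wildtype count was 3 without wildtype baseline mouse 1 or ventilated mouse 1. Whether gp130 or STAT3 drove these changes was not tested. Between ventilated lungs 7 of the 15 were higher in Zmpste24-/- lungs. The NF-κB cofactor gene Bcl3 was higher by 2.06 ± 0.20 in Zmpste24-/- lungs (adjusted p = 1.46e-05) and 1.46 ± 0.20 in wildtype lungs (adjusted p = 0.000677). The kinase gene Pim1 was higher by 1.73 ± 0.15 in Zmpste24-/- lungs (adjusted p = 7.56e-06) and changed by 0.51 ± 0.15 in wildtype lungs (adjusted p = 0.0575). The survival gene Mcl1 was higher by 0.87 ± 0.08 in Zmpste24-/- lungs (adjusted p = 7.56e-06) and 0.36 ± 0.08 in wildtype lungs (adjusted p = 0.012).

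In the IL-6 receptor and JAK-STAT list, 6 of 17 genes were higher and 1 lower in Zmpste24-/- lungs, and 4 were higher and 1 lower in wildtype lungs, the wildtype higher count being 2 without wildtype baseline mouse 2 or 3 or ventilated mouse 3. Stat3 itself was higher by 0.90 ± 0.08 in Zmpste24-/- lungs (adjusted p = 1.05e-05) and 0.57 ± 0.08 in wildtype lungs (adjusted p = 0.000987). Of the 7 other tested IL-6 family ligands, only Il11 was called after ventilation, at the edge of the threshold in Zmpste24-/- lungs (0.37 ± 0.12, adjusted p = 0.05). That call held in 6 of 21 alternatives. Of 8 colony-stimulating factors and receptors, Csf1 (0.44 ± 0.09, adjusted p = 0.00509) and Csf2rb2 (0.35 ± 0.11, adjusted p = 0.0414, lost in 9 of 22 alternatives) were higher in Zmpste24-/- lungs and none in wildtype lungs, where 1 had an unadjusted p under 0.05. At baseline 3 of the 8 were lower in Zmpste24-/- than in wildtype lungs. Csf2rb2 was among them, at -0.46 (adjusted p = 0.0236 by limma), and it differed by -0.31 in ventilated lungs (adjusted p = 0.09). Csf1 differed by -0.32 at baseline (adjusted p = 0.0608) and 0.01 in ventilated lungs.

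On the TNF side, of 13 TNF receptor and signalling genes, 10 were higher in Zmpste24-/- lungs, or 6 without Zmpste24-/- baseline mouse 3, and 3 were higher and 1 (Traf1) lower in wildtype lungs. Tnfaip3, encoding the NF-κB inhibitor A20, was higher by 1.25 ± 0.10 in Zmpste24-/- lungs (adjusted p = 4.34e-06) and 0.68 ± 0.10 in wildtype lungs (adjusted p = 0.0012). Birc3, encoding an inhibitor of apoptosis in the TNF receptor complex, was higher by 0.92 ± 0.09 and 0.83 ± 0.09 in Zmpste24-/- and wildtype lungs (adjusted p = 1.34e-05 and 0.000145). Nfkbiz was higher by 1.15 ± 0.11 in Zmpste24-/- lungs (adjusted p = 1.86e-05) and changed by 0.30 ± 0.11 in wildtype lungs (adjusted p = 0.139).

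Of 9 TNF family ligands, 2 were higher and 2 lower in Zmpste24-/- lungs and 1 higher and 1 lower in wildtype lungs. Tnfsf10, encoding the death ligand TRAIL, was lower by the log2 change -1.28 ± 0.14 in Zmpste24-/- lungs (adjusted p = 4.96e-05) and -1.08 ± 0.14 in wildtype lungs (adjusted p = 0.000557), opposite to Tnf. Tnfsf9, encoding 4-1BB ligand, was higher by 0.88 ± 0.16 in Zmpste24-/- lungs (adjusted p = 0.00192) and 0.57 ± 0.16 in wildtype lungs (adjusted p = 0.0476, lost in 12 of 22 alternatives). Between ventilated lungs 3 of these ligands (Ltb, Tnfsf10 and Tnfsf13b) were lower in Zmpste24-/- lungs. At baseline 3 were lower as well (Ltb, Tnfsf10 and Fasl). Tnfsf10 differed by -0.87 in ventilated lungs (adjusted p = 0.00194 by limma) and -0.67 in baseline lungs (adjusted p = 0.0131).

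Proteins that bind cytokine mRNAs and control their decay form a last list of 9 genes, of which 6 were higher in Zmpste24-/- lungs and 2 in wildtype lungs, with medians of 0.44 and 0.15. The wildtype count was 0 without wildtype baseline mouse 1 or 2 or ventilated mouse 3. Zfp36, encoding tristetraprolin, which destabilises Tnf mRNA, was higher by 1.70 ± 0.19 in Zmpste24-/- lungs (adjusted p = 6.11e-05) and changed by 0.53 ± 0.19 in wildtype lungs (adjusted p = 0.13). Zc3h12a, encoding the RNase regnase-1, was higher by 0.71 ± 0.10 and 0.37 ± 0.10 in Zmpste24-/- and wildtype lungs (adjusted p = 0.000257 and 0.0351). Its relative Zc3h12c was higher by 0.76 ± 0.10 and 0.41 ± 0.10 (adjusted p = 0.000166 and 0.0246) in the same order.

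**Figure D4:**
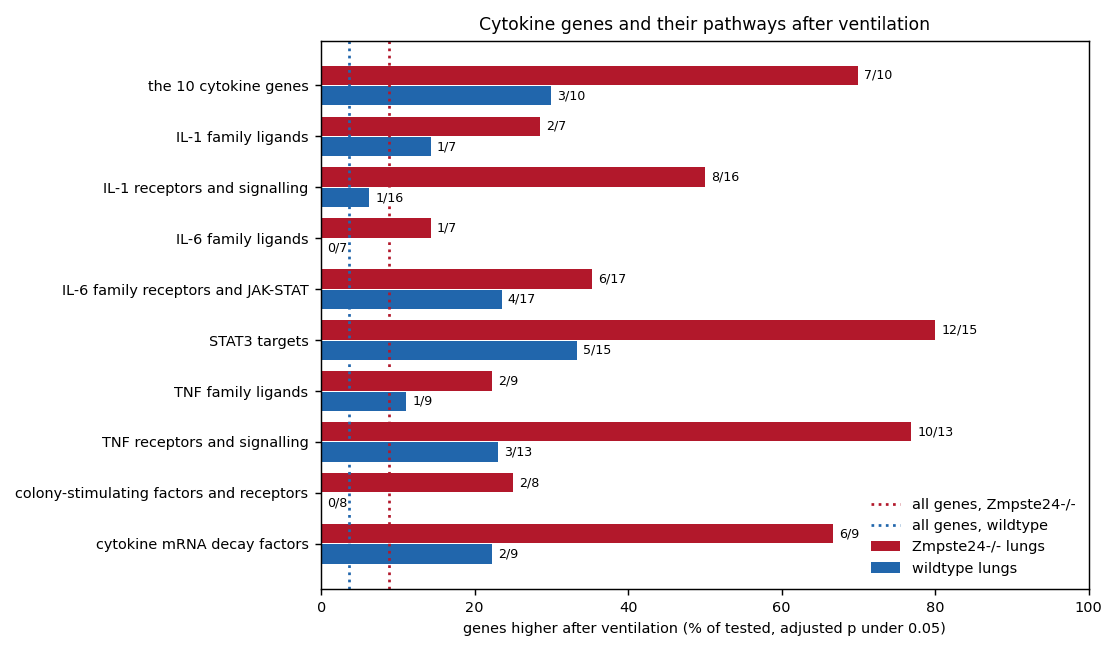
Share of tested genes higher after ventilation (adjusted p under 0.05) in Zmpste24-/- lungs (red, upper bar) and wildtype lungs (blue, lower bar), for the 10 cytokine genes and 9 pathway lists that exclude them, with counts beside the bars. Dotted lines give the share over all genes, 8.89% and 3.67%, and the STAT3 targets (12 of 15) and TNF receptors and signalling (10 of 13) have the longest bars in Zmpste24-/- lungs.

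Likeness of pattern was measured as Pearson's r of log2 values over the 12 arrays, which share groups and normalization, and is a description without a test. The genes most like Socs3 were Atf4 (r = 0.991), Slc25a25 and Gja1, and those most like Lif were Sertad1 (r = 0.979), Arc and Junb. Il6 was most like Clec4n (r = 0.971), Lag3 and Adamts4, and Il1r2 most like Mbd1 (r = 0.979), Tatdn2 and Map2k3. Il1b was most like Arhgap40 (r = 0.924), Inava and Nlrp12, and Il1a most like Trp53inp2 (r = 0.960), Clasp1 and Nfatc1. Tnf was most like Ccdc86 (r = 0.947), Cd83 and Abl2, and Osm most like Wwc1 (r = 0.969), Ier5l and Nr4a2. For Il1rn (Mnd1, r = 0.884) and Csf3 (Oprk1, r = 0.890) the closest gene was farther away, and the matches of Csf3 average 4.13 to 4.37 in their groups, all below the array median.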

How the data were processed

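The authors deposited normalized expression values of 12 arrays on a log2 scale, which was inferred from the range of the values. Per the submitters' processing notes, RMA and limma were used by the authors, with no version named. Per the labels' protocols, Trizol was used for extraction and labelling began from 100 ng of RNA. Batches of arrays were not tested, since the sources name no scan date and no slide.

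Of 41345 probes, 23521 were paired with 1 gene symbol by the platform annotation, which can be old, 1814 with several and 16010 with none. RefSeq (GRCm38.p6) held 23328 of the 1-symbol probes by gene identifier. Each gene was read from its 1-symbol probe with the highest mean, which gave 22180 genes, and values were not normalized again. The tests used limma 3.58.1 (lmFit, then eBayes; R 4.3.3) on the 12 arrays together, with the 4 group means as coefficients. The 5 contrasts were ventilation within each genotype, genotype within each condition, and their interaction. Adjusted p is Benjamini-Hochberg over all genes, with 0.05 as threshold. An exact permutation test on 3 against 3 arrays reaches 0.1 at the lowest. The procedure was tested on simulated data. Python 3.11.15 with matplotlib 3.10.9 drew the figures.

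The 10 genes, the 9 pathway lists and the marker lists were chosen with earlier results of these data known. Named besides the 10 genes are Zmpste24, the receptors, up to 3 genes of each pathway list with the smallest adjusted p among those called for ventilation or the interaction, and for each of the 10 genes the 3 most alike. Ltf, Ly6c2, Traf1, Ltb and Tnfsf13b, named to complete small counts, and Alb and Mup20 were chosen after their values were seen. Promoters were RefSeq windows of 300 bases, searched on both strands.

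Alternatives were 2 other scalings, 2 filters on low expression, the mean of a gene's probes, all probes tested together, a trended and robust variance model, array weights, the 2 groups fitted alone, the replicate number as a block, and each array left out in turn. Their use for lists and pathway genes was added after the data had been seen. Deviations from group means of same-numbered arrays correlated between -0.152 and 0.153 in 18 pairs, so the numbers were not taken to pair the mice.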

Additional observations from a re-analysis of the deposited data

Results flagged for a closer look

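Pim1 and Nfkbiz passed the interaction test, their change after ventilation being larger in Zmpste24-/- than in wildtype lungs, where neither change passed on its own. The excess was 1.22 for Pim1 (adjusted p = 0.0422 by limma) and 0.85 for Nfkbiz (adjusted p = 0.0441), on the log2 scale, and each call held in 8 of 21 alternatives. Both genes had genotype differences of opposite direction in the 2 conditions. Nfkbiz differed by -0.41 in baseline lungs (adjusted p = 0.0453 by limma, held in 8 of 22 alternatives) and 0.43 in ventilated lungs (adjusted p = 0.0245). Pim1 differed by -0.44 in baseline lungs (adjusted p = 0.104) and 0.77 in ventilated lungs (adjusted p = 0.00545). In 3 further genes the values ran in opposite directions without an interaction that passed. Fasl changed by 0.44 after ventilation in Zmpste24-/- lungs and by -0.26 in wildtype lungs, an excess of 0.70 (adjusted p = 0.0521) at levels below the array median in every group. Tnfrsf1b changed by 0.36 in Zmpste24-/- lungs and -0.23 in wildtype lungs, an excess of 0.59 (adjusted p = 0.123). For Il18r1 the genotype difference was 0.38 in ventilated lungs and -0.37 in baseline lungs, an excess of 0.76 (adjusted p = 0.142). No cause was tested for any of these.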

How the results depend on the processing

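Of 1070 values of single cytokine genes under the alternatives, 998 kept their direction and their side of the threshold, 17 newly passed and 26 no longer passed. The other 29 changed sign without passing the threshold either way, among them Il1a and Il1b after ventilation in wildtype lungs and Il1a between ventilated lungs, and 0 called values changed sign. The 10 genes held 7 calls for ventilation in Zmpste24-/- lungs (5 to 8 over all alternatives) and 3 in wildtype lungs (2 to 4). The count of 5 arose with genes under the median left out, where only 6 of the 10 genes were tested. For genotype in ventilated lungs there were 5 calls, and 3 to 7 when single arrays were left out, 3 of them without wildtype ventilated mice 2 or 3 or Zmpste24-/- ventilated mice 2 or 3. For genotype in baseline lungs there was 1 call, and 0 with genes under the median left out, where Il1a was not tested, 0 with all probes tested together, and 0 to 1 when single arrays were left out (0 without any 1 of the wildtype baseline mice or without Zmpste24-/- baseline mouse 1). Without Zmpste24-/- baseline mouse 3 the 1 call was Il1r2, not Il1a. For the interaction there were 0 calls, 1 (Lif) with genes under the median left out, 1 (Lif) with array weights, and 0 to 1 when single arrays were left out (Lif without wildtype ventilated mouse 1). With the replicate block the counts were 7, 3, 6, 1 and 0 for these 5 contrasts, and Il6 was the gene gained between genotypes in ventilated lungs (adjusted p = 0.0369). Over all genes the calls ranged from 2432 to 4804 for ventilation in Zmpste24-/- lungs (3641), 799 to 1736 in wildtype lungs (1597), 1369 to 3239 for genotype in ventilated lungs (2395), 646 to 1770 in baseline lungs (1399) and 4 to 164 for the interaction (70), with the reported count in brackets. Mcl1 turned sign for genotype at baseline, at 0.43 (adjusted p = 0.0338) with the mean of its probes against -0.03 as reported. Except where an alternative tested fewer genes or arrays, the cause was not tested. Csf3, Il1a, Il6 and Osm, which lay below the array median in 11 or 12 arrays, may be near background, and the 3 arrays per group limit the precision of every gene.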
